A study of Mus musculus with 4 samples.

Results

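An antibody to the C-terminus of REST was used to recover chromatin from wild type N6 mouse embryonic stem cells (ESCs), and the DNA was sequenced and reduced to a list of 2504 regions on the mm9 assembly. The cells were of the C57BL/6 strain, kept in LIF and moved off feeder fibroblasts before harvest, with no further treatment. Of the 4 samples of the series only this one was analysed here. The input DNA and the H3K27me3 libraries of both genotypes, wild type and Rest knockout, were not analysed here, and a list of regions offers no expression with which to check the cell type. DNA from replicate immunoprecipitations had been combined into 1 library. The list thus had no replicates, each region carried its coordinates and a rank (1 for the strongest enrichment, 2504 for the weakest), and the sequencing depth at each region was unknown.

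This account concerns REST regions that lay deep inside genes. A region was taken when its midpoint was over 20 kb from every transcription start site (TSS) of a protein-coding transcript in the GENCODE M1 annotation and fell within the span of at least 1 protein-coding gene, here called its host. Of the 2504 regions, 496 (19.8%) met both conditions. Another 677 (27%) were as far from a TSS but outside protein-coding genes, and 1331 (53.2%) lay within 20 kb of a TSS. The rule that assigned a region to a class used its position alone, so distances from a TSS are given as a description. Rank and DNA sequence did not enter that rule and were compared between classes.

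REST is a zinc finger protein that silences genes of mature neurons in stem cells and in tissues outside the nervous system. It binds a DNA element, the RE1, made of a left and a right element a short distance apart, and recruits corepressors and histone deacetylases there. The RE1s first described were close to promoters, but REST can also bind in introns and far from genes.

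The sequences below some of the best-ranked distal genic regions are shown first, because the results on RE1 content rest on them. In the RE1 search used here a full RE1 had 9 defined bases in the left element, 2 free bases and 10 defined bases in the right element, with at most 5 mismatches in all. The 6 sites that follow were the best-ranked ones with exactly 1 full RE1, each with 10 bases on either side, read on the strand of the RE1. Capitals mark bases that match the RE1 consensus. All 6 lay in introns.
Nsun3, rank 58, chr16:62758361-62758401, minus strand: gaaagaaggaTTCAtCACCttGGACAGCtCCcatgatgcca
Cacna1a, rank 61, chr8:86978632-86978672, minus strand: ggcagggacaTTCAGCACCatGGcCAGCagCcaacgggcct
Trappc9, rank 82, chr15:72520400-72520440, minus strand: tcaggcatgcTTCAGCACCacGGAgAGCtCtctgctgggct
Adcy5, rank 85, chr16:35302638-35302678, plus strand: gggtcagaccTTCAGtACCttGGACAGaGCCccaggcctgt
Cdh13, rank 93, chr8:121688146-121688186, plus strand: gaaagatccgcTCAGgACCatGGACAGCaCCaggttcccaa
Hmcn2, rank 97, chr2:31201804-31201844, plus strand: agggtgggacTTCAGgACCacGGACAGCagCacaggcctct

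These sites had 2 or 3 mismatches each. In Cacna1a and Trappc9 the left element matched at every base and all 3 mismatches were in the right element. Cacna1a encodes the pore of the P/Q-type calcium channel, Adcy5 an adenylyl cyclase, Cdh13 the atypical T-cadherin, Hmcn2 a hemicentin of the extracellular matrix, Trappc9 a subunit of a vesicle trafficking complex and Nsun3 a mitochondrial tRNA methyltransferase.

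A second set, of regions with 2 or more full RE1s, is shown because their median rank was the best of any class of RE1 content, although single regions ranged from rank 4 to 2308. Capitals here mark each copy of 21 bases whole, including its mismatches.
Phf21b, rank 7, chr15:84659969-84660094, minus strand: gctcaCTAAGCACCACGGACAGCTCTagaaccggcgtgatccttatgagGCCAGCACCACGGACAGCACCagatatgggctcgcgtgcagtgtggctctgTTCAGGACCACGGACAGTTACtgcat
Xkr6, rank 10, chr14:64300451-64300610, plus strand: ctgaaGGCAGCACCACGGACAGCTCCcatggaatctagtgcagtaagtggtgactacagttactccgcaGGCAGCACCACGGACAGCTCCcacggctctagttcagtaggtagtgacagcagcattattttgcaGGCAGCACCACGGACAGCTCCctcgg
Garnl3, rank 46, chr2:32873729-32873780, plus strand: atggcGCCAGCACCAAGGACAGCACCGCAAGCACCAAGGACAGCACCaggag
Cdh13, rank 65, chr8:121782662-121782774, plus strand: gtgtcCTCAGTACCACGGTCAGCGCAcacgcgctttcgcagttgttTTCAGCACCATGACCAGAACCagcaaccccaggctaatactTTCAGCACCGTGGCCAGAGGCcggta
Cdh13, rank 2308, chr8:121165870-121165970, plus strand: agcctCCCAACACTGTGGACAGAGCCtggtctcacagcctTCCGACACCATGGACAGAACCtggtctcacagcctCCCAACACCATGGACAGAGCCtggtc

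In the intron of Xkr6, an XK-related membrane protein gene, the 3 copies were the same 21 bases repeated at steps of 64 and 65 bp. In Garnl3, which encodes a GTPase-activating protein domain, the copies abutted at a step of 21 bp. The 2 Cdh13 regions each held 3 copies at even steps, 41 bp in one and 35 bp in the other, but they stood at ranks 65 and 2308. The copies of the weaker region had 4 or 5 mismatches and those of the stronger 3 or 4. Of the 11 distal genic regions with 2 or more full RE1s, 10 had every copy on 1 strand.

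A full RE1 was found in 327 of the 496 distal genic regions (65.9%, exact Clopper-Pearson 95% interval 61.6 to 70.1%), against 58.1% of the whole list. Windows of the same width taken 2 kb to each side held one in 6 of 989 cases (0.607%, odds ratio 317, Fisher's exact test, two-sided, p = 1.71e-190). The best RE1 was at a median of 23 bp from the midpoint of the region, and in 295 of 327 regions (90.2%) it was within 50 bp. The share was higher than in regions within 20 kb of a TSS, where 721 of 1331 had a full RE1 (54.2%, odds ratio 1.64, Fisher's exact test, Benjamini-Hochberg adjusted p = 4.79e-05 over 8 comparisons). With at most 3 mismatches this difference did not pass the threshold (odds ratio 1.30). Against distal regions outside genes, at 406 of 677 (60%), the odds ratio was 1.29 and the adjusted p was 0.0509, so the difference was not called.

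The contrast with TSS-proximal regions also appeared at both ends of the scale of RE1 content. A region was classed as having no element when it held neither a full RE1 nor a left or right element with at most 1 mismatch. This was so in 65 distal genic regions (13.1%, 10.3 to 16.4%). In regions within 20 kb of a TSS the count was 261 (19.6%, odds ratio 0.618, Fisher's exact adjusted p = 0.00323). The later search at other gaps allowed more mismatches per element and matched some of the distal genic regions of this class. Repeated full RE1s occurred in 11 distal genic regions (2.22%, 1.11 to 3.93%) and in 62 of the TSS-proximal ones (4.66%, odds ratio 0.464, Fisher's exact adjusted p = 0.0251). Distal regions outside genes were not separated from those inside by either measure, with no element in 16.2% (adjusted p = 0.181) and repeats in 3.4% (adjusted p = 0.291, both Fisher's exact). With at most 3 mismatches neither contrast with TSS-proximal regions passed the threshold, nor did the contrast in repeats at limits of 10 or 50 kb.

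**Figure D1:**
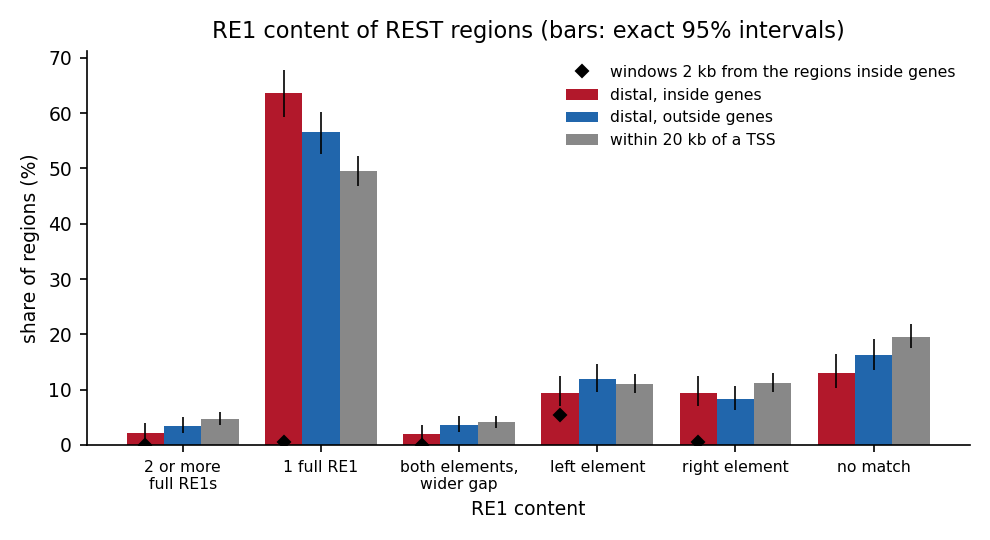
Share of regions (%, y axis) in each class of RE1 content (x axis) for distal regions inside genes (red, n = 496), distal regions outside genes (blue, n = 677) and regions within 20 kb of a TSS (grey, n = 1331). Lines are exact 95% intervals and diamonds give the windows 2 kb from the red regions, whose share without a match (93.4%) is not drawn. The red bar is highest for 1 full RE1, at 63.7%, and lowest of the 3 for no match, at 13.1%.

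None of the 327 best RE1s was perfect. Perfect RE1s were rare in the whole list, at 12 of 1454 regions with a full RE1 (0.825%). They occurred in 4 of 406 distal regions outside genes (0.985%) and 8 of 721 within 20 kb of a TSS (1.11%). The difference was not tested. Inside genes 16 of the best sites had 1 mismatch, 69 had 2, 85 had 3, 85 had 4 and 72 had 5. The median rank was 1045.5 with 1 mismatch, 1050 with 2, 915 with 3, 1366 with 4 and 1480 with 5, so the weaker sites were at the weaker end of the list but ranks did not follow each step. The strand of the best RE1 matched that of the host gene in 174 of 324 regions whose hosts shared 1 strand (53.7%, two-sided exact binomial p = 0.201 against 50%).

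The 169 distal genic regions without a full RE1 were searched again for a left and a right element at any spacing from 0 to 20 bases, with at most 4 mismatches over both. Matches gathered at gaps of 8, 9 and 10 bases, seen in 13, 16 and 11 regions. In all, 46 regions (27.2%) had a match with a gap of 7 to 11 bases, whereas none of the 336 flanking windows did. By the approximate limit of 3 counts over 336 windows, not an exact interval, this allows a share of up to 0.893%. A smaller group had the elements closer than in the canonical RE1, with 9 regions at a gap of 1 base and 6 at a gap of 0. The search was added after the data were seen, and a region could match at several gaps. The 4 best-ranked regions with a gap of 7 to 11 bases are printed with both elements in capitals.
Atp2b2, rank 14, chr6:113802540-113802578, minus strand, gap of 10: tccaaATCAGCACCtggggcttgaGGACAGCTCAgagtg
Unc5a, rank 53, chr13:55072395-55072432, plus strand, gap of 9: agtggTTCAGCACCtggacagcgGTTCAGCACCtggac
Myo1d, rank 157, chr11:80427201-80427237, plus strand, gap of 8: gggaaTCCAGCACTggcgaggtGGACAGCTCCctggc
Nav1, rank 255, chr1:137531535-137531573, plus strand, gap of 10: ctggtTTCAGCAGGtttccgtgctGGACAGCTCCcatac

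Each of the 4 had 3 mismatches over both elements. Atp2b2 encodes a plasma membrane calcium pump, Unc5a a netrin receptor, Myo1d an unconventional myosin and Nav1 a neuron navigator protein. The Unc5a window was ambiguous, because the run taken as its right element contained a second perfect left element, and the same region also matched at gaps of 1 and 20 bases.

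**Figure D2:**
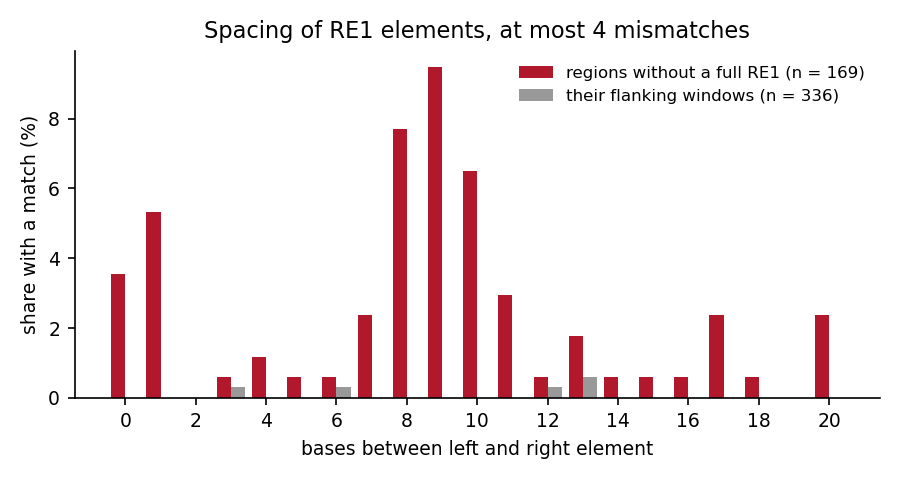
Share of regions (%, y axis) with both RE1 elements at each spacing (x axis, bases between the elements), for the 169 distal genic regions without a full RE1 (red) and their 336 flanking windows (grey). The highest bar is at 9 bases (9.47%). The value at 2 bases is 0 by construction, since such a match would be a full RE1.

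Short sites for other factors were then counted, searching both strands. The E-box CAGCTG was present in 62 of 327 distal genic regions with a full RE1 (19%) and in 67 of 653 flanking windows (10.3%, odds ratio 2.05, Fisher's exact test, adjusted p = 0.00161 over 8 comparisons). In 7 of the 62 every E-box overlapped a full RE1. All 2504 regions of the list held the E-box at 18%, so the share in the distal genic regions was near that of the list. Among those in the better-ranked 1252 regions of the list the odds ratio was 1.60 and did not pass the threshold. Regions without a full RE1 had the E-box in 13.6%, against 10.4% of their flanks (Fisher's exact adjusted p = 0.544). Octamer, Esrrb and Klf sites were found in 0.306 to 1.78% of the distal genic regions, and none of these shares differed from the flanks past the threshold (Fisher's exact adjusted p from 0.399 to 1).

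By rank, REST regions deep in genes were weaker than the rest of the list. Their median rank was 1412 (quartiles 839.8 and 1973.5, range 4 to 2503), against 1264 for distal regions outside genes and 1174 for regions within 20 kb of a TSS. The first difference was 148 ranks (Mann-Whitney test, two-sided, n = 496 and n = 677, adjusted p = 0.00945) and the second 238 ranks (n = 496 and n = 1331, adjusted p = 4.87e-05). A region inside a gene had the better rank of a pair with probability 0.452 against one outside and 0.434 against one near a TSS, so the distributions overlapped widely. The first difference fell to 112.5 ranks and was no longer called when TSSs of all annotated transcripts set the limit, and to 123.5 among regions with exactly 1 full RE1. The distal genic regions made up 91 of the 626 best-ranked regions (14.5%), then 117, 139 and finally 149 of the weakest 626 (23.8%). Of those 91, 84.6% had a full RE1, and of the last 149, 50.3%.

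**Figure D3:**
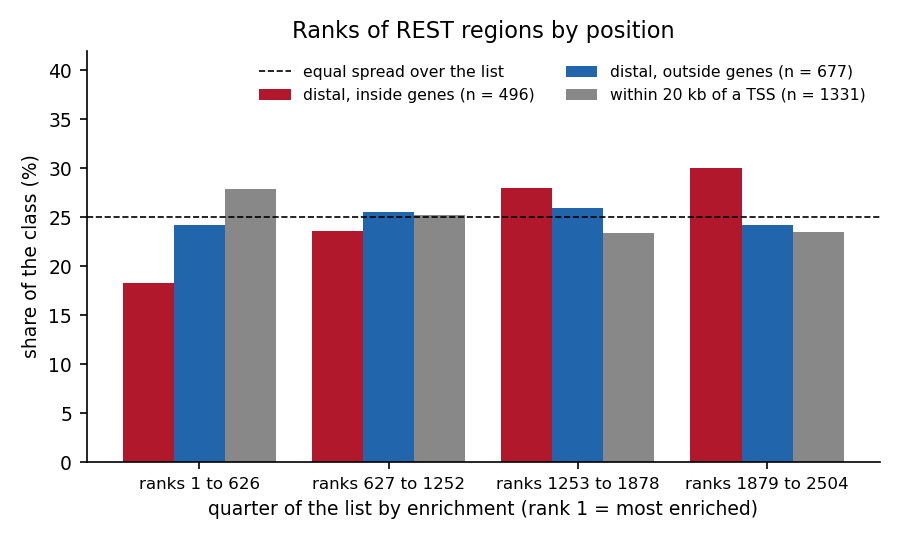
Share of each class (%, y axis) in each block of 626 ranks (x axis, ranks 1 to 626 the most enriched), for distal regions inside genes (red), distal regions outside genes (blue) and regions within 20 kb of a TSS (grey). The dashed line marks 25%, an equal spread. The red bars rise from the first block, with 91 regions, to the last, with 149.

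Rank went with RE1 content inside genes as well. Regions with a full RE1 had a median rank of 1228 and those with no element 1882, a difference of -654 ranks (Mann-Whitney test, two-sided, n = 327 and n = 65, p = 3.54e-08). Among the 1252 better-ranked regions of the list, a limit set on rank itself, the difference was -205.5 ranks and was not called (n = 166 and n = 12, p = 0.231). The 11 regions with repeated RE1s had a median of 46 and ranged from 4 to 2308. Regions with only a left or only a right element stood at medians of 1730 and 1746, with 47 regions each (9.48%). Over the whole list these classes made up 10.9% and 10.1%. The flanking windows had a left element alone in 5.46% and a right element alone in 0.506%, so a left element alone was far more frequent in the background. Width was another correlate of rank, with a median of 310 bp in the 91 distal genic regions among the first 626 ranks and 188 bp in the 149 among the last 626, and its part in the share of full RE1s was not tested.

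The 20 best-ranked distal genic regions lay in 17 hosts, and all 20 were intronic. Celf4, an RNA-binding regulator of splicing and translation in neurons, held the best of them at rank 4, with 4 full RE1s, in intron 2 of 12 and 85.7 kb from the nearest coding TSS. Phf21b, a PHD finger protein gene, followed at rank 7, and Xkr6 held ranks 10 and 25 in its first intron. Myo18b, an unconventional myosin of muscle, held rank 26 in intron 40 of 43. Cacna1a held ranks 61 and 122, in introns 1 and 3 of 46. Camk1d, a calmodulin-dependent kinase gene, held rank 77 with no RE1 element detected. Xylt1, a xylosyltransferase gene of proteoglycan synthesis, held rank 100, Mad1l1, a spindle checkpoint gene, rank 125, and Kcnip1, a subunit gene of A-type potassium channels, rank 131. The remaining 9 regions, from rank 14 to 97, were those of Atp2b2, Garnl3, Unc5a, Nsun3, Trappc9, Adcy5, Hmcn2 and Cdh13, the last with ranks 65 and 93.

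Host genes numbered 393 of the 7580 protein-coding genes that contain any sequence over 20 kb from every coding TSS (5.18%). Of the 393, 323 held 1 region, 46 held 2 and 24 held 3 or more. Hosts were long, with a median of 186.1 kb against 63.4 kb for all genes that could host. The share of genes with a region rose from 1.92% below 100 kb to 7.55% at 100 to 200 kb, 15.2% at 200 to 400 kb and 27.6% above 400 kb. Per Mb of distal sequence, however, these length classes had 0.913, 1.00, 0.927 and 0.762 regions. Distal sequence inside genes as a whole had 0.878 regions per Mb (exact Poisson 95% interval 0.803 to 0.959) and distal sequence outside genes 0.542 per Mb (0.502 to 0.585). Sequence where no read aligns uniquely was counted in both, and its part in this difference was not tested.

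Cdh13, Rbfox3 and Camta1 each held 6 distal regions. Rbfox3 encodes the neuronal nuclear antigen NeuN, a splicing regulator. Its 6 regions ranked 138, 279, 675, 1764, 1938 and 2127 and occupied introns 2, 3 and 4, from 224.4 to 370.7 kb into a gene of 421.8 kb. Only those of ranks 138, 279 and 1764 had a full RE1, on the strand opposite to the gene in each case. Rbfox3 also had 4 regions within 20 kb of its own TSSs, the best at rank 15.

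Camta1 encodes a calmodulin-binding transcription activator. Its distal regions ranked 333, 906, 907, 1180, 1915 and 2042, each with 1 full RE1 of 3 or 4 mismatches, and they fell in separate stretches, 97.7 to 102.5 kb and 616.6 to 699.8 kb from the start of the gene. The regions of ranks 333 and 1180 were neighbours, at 675.2 and 675.9 kb. Cdh13 had no region near its own TSSs. Its 6 ranked 65, 93, 1173, 1630, 2308 and 2426 over a gene of 1041.2 kb.

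Srrm4, which encodes a neural splicing activator, held 4 distal regions in 89 kb of distal sequence (45 per Mb). They ranked 214, 339, 496 and 965. The first 3 lay in intron 1 at 45.9, 73.5 and 37.7 kb from the start of the gene, each with 1 full RE1 of 1, 2 or 3 mismatches. The last lay in a UTR exon at 147.9 kb and had no RE1 element. Grik3, a kainate receptor gene, held 4 in its first intron at ranks 268, 869, 1545 and 2222. Accn1, an acid-sensing ion channel gene, held 4 in its first intron at ranks 605, 662, 756 and 980, all with a full RE1 on the strand of the gene. Trappc9 held ranks 82, 1228, 2152 and 2410, and for 3 of them the nearest coding TSS was that of Kcnk9, a potassium leak channel gene. Anks1b, a synaptic scaffold gene, held ranks 358, 1340, 1594 and 1968.

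Hosts of 3 regions were Celf4, Xkr6, Atp2b2, Crtac1, Kcnh1, Rimbp2, Csmd1, Efcab6, Cdh22, Dpp6, Btbd9, Nek11, Fgfr2, Kcnd3 and Ptprt. Kcnh1 and Kcnd3 encode potassium channels, Dpp6 an auxiliary subunit of A-type potassium channels, Rimbp2 a presynaptic partner of calcium channels, Nek11 a NIMA-related kinase and Btbd9 a BTB domain protein. The 3 regions of Ptprt, a receptor tyrosine phosphatase gene, ranked 1614, 1677 and 1926 and none had a full RE1. In Cdh22, a cadherin gene, the regions of ranks 918 and 1123 shared intron 3 and the third, of rank 2350, covered a coding exon without any RE1 element.

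Some hosts reflect the annotation more than a gene body. Gm20388 was annotated over 4434.9 kb with 72 other coding genes inside, and Fgfr2 over 3009.1 kb with 31. They were credited with 6 and 3 regions. The 4 regions that had no other host were left out as an alternative added after the data were seen, and no comparison changed its call. Of all 393 hosts, 348 contained no further coding gene.

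**Figure D4:**
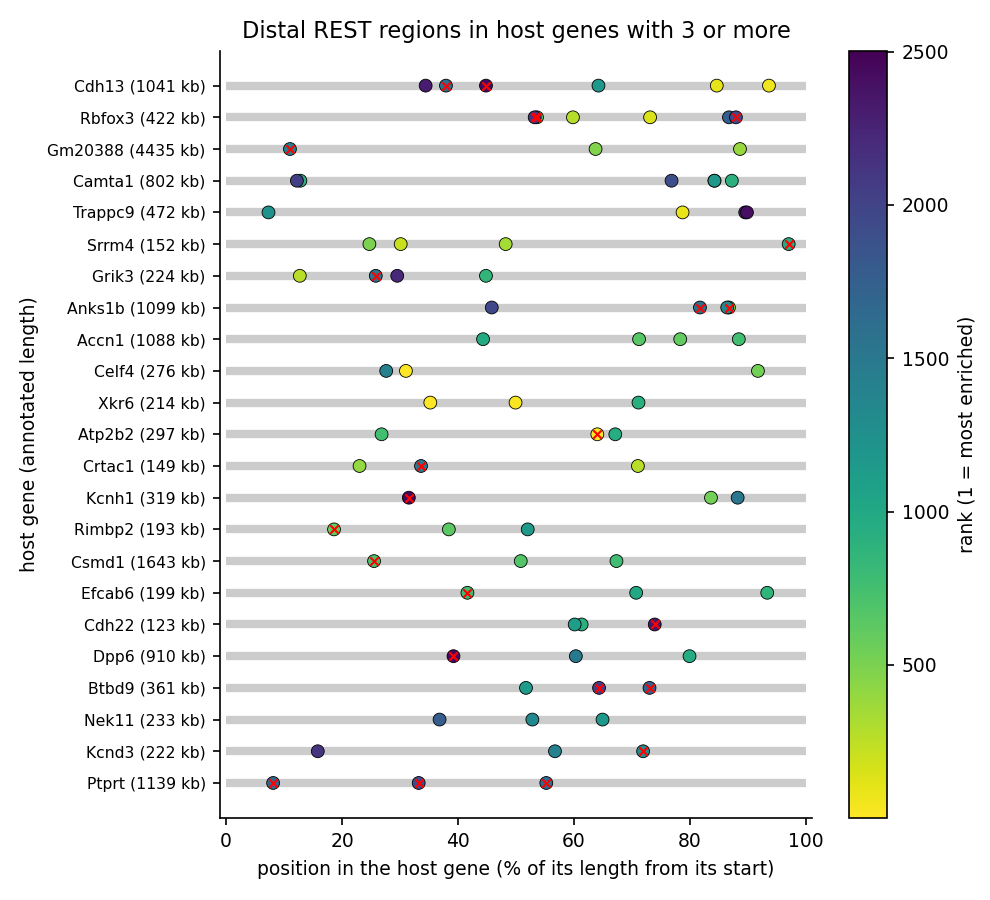
Position of each distal REST region in hosts with 3 or more (x axis, % of the host's length from its start, y axis, host with its annotated length). Colour gives the rank and a red cross marks a region without a full RE1. A region inside overlapping hosts is drawn once, in the smaller host, so Gm20388 shows fewer than its 6 and Fgfr2 is not drawn. The regions of Camta1 fall into separate stretches and those of Rbfox3 lie in the second part of the gene.

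Within their hosts, 461 of the 496 regions were intronic (92.9%, 90.3 to 95%). The midpoint was in a coding exon in 18 (3.63%), in a UTR exon in 11 (2.22%), in an exon of a noncoding transcript of the host in 4 and in an exon of another gene in 2. The 18 included both regions of Ryr1, the ryanodine receptor gene of skeletal muscle, at ranks 1206 and 2316, and those of Reln, the reelin gene, at rank 2073 and Rph3a, the rabphilin gene, at rank 1398, all 4 with 1 full RE1. Others of the 18 had no RE1 element, as in BC046404 at rank 400 and Cdh22 at rank 2350. Of 460 regions in numbered introns, 105 were in the first intron (22.8%), 69 in the second (15%) and 39 in the last (8.48%). The introns were large, with a median of 48.2 kb, and the nearest exon of the host was at a median of 8.43 kb.

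The median distance to the nearest coding TSS was 55.7 kb (20.1 to 750.8 kb). In 136 regions (27.4%) this TSS belonged to a gene other than the host, as for Myo18b at rank 26, where the TSS of Sez6l, a seizure-related gene, was 141.7 kb away and that of the host 177.5 kb. The 5 farthest regions were in Immp2l (750.8 kb, rank 1169), Fam190a (748.1 kb, rank 2345), Il1rapl1 (651.8 kb, rank 1536), Ctnna3 (518.4 kb, rank 1653) and Cdh13 (466.3 kb, rank 2426). Of these only the Ctnna3 region had a full RE1. At the other side of the choice, regions just past 20 kb were in Ryr1 (20.118 kb), BC057022 (20.128 kb), Brsk2 (20.138 kb) and Cmc1 (20.159 kb). Those just short of it were in Cacna1h (19.999 kb, rank 1806), Lhx4 (19.638 kb, rank 944), a second region in Brsk2 (19.624 kb, rank 549), Coro1c (19.588 kb, rank 2442) and Vrk3 (19.241 kb, rank 23).

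Distance from a coding TSS did not exclude other transcripts. An annotated TSS of any kind lay within 1 kb of 13 regions (2.62%) and within 20 kb of 128 (25.8%). With all annotated TSSs setting the limit, 368 of the 496 regions remained, and 508 of the 677 distal regions outside genes. For Shank1, a postsynaptic scaffold gene, the region at rank 1164 was 0.161 kb from the start of a processed transcript of the gene itself, and for Ptges, a prostaglandin synthase gene, the region at rank 185 was 0.453 kb from such a start. Of the 393 hosts, 65 (16.5%) also had a REST region within 20 kb of one of their own TSSs, against 591 of the 7580 genes that could host (7.8%). These 7580 include the hosts, which were longer (median 186.1 kb against 63.4 kb), and the part of length in this difference was not tested. The other 328 of the 393 hosts had no region within 20 kb of their own TSSs.

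Hosts were also read against 14 lists of genes, which differ in length as much as in function, so each share is given beside its density. Genes of synaptic adhesion and organisation had the highest share, 24 hosts among the 62 that could host (38.7%, exact 95% interval 26.6 to 51.9%), but at a median length of 644.8 kb their density was 0.837 per Mb (0.579 to 1.17), near the 0.878 of all distal genic sequence. Sdk1, a sidekick adhesion molecule gene (rank 208), Dlgap2, a postsynaptic scaffold gene (rank 454), and Cntn5, a contactin gene (rank 585), held the best ranks of this list. Voltage-gated channels and their subunits had 13 hosts of 54 (24.1%) and 1.76 regions per Mb (exact Poisson 1.10 to 2.66), led by Cacna1a, Kcnip1 and the AMPA receptor regulator gene Cacng2 (rank 464). That list thus also took in genes of other kinds, and 2 of its 22 regions were in Cacng2.

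RNA-binding and splicing factors of neurons had the highest density, 15 regions in 4.23 Mb or 3.55 per Mb (1.99 to 5.85), from 5 hosts of 23 (21.7%). Of those 15, Rbfox3 held 6, Srrm4 4, Celf4 3, and Nova2 (rank 396) and Celf2 (rank 1529) 1 each. Vesicle release genes had 8 hosts of 38 (21.1%, 1.35 per Mb), with Cadps, a priming factor gene, at rank 306, Rimbp2 at 598 and Rab3c, a vesicle GTPase gene, at 757. The cytoskeleton and transport list had 8 of 40 (20%, 1.42 per Mb). Its 10 regions included 2 in the muscle myosin gene Myo18b (best rank 26) and 1 in Jph3, a junctophilin gene, at rank 207. Axon guidance genes had 10 of 52 (19.2%, 0.901 per Mb), with Unc5a at rank 53, Slit1, which encodes a guidance ligand, at 199 and Unc5c at 702. The list of second messenger enzymes and kinases had 9 of 50 (18%, 0.996 per Mb). It also took in genes of other kinds, and 6 of its 14 regions were in the transcription activator gene Camta1. The ryanodine receptor genes Ryr2 and Ryr3 held 1 each. Neurotransmitter receptors had 6 of 44 (13.6%, 0.929 per Mb). Their best ranks were those of Grik3 (268), Grik4, another kainate receptor gene (480), and Grid1, a delta glutamate receptor gene (566).

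The other lists had lower shares, to be read beside the 5.18% of all genes that could host. Only the liver, kidney and gut list and the feeder fibroblast and matrix list fell below that share. Transcription factors of neural development had 5 hosts of 43 (11.6%, 0.585 per Mb), with Prdm16 at rank 546. Muscle and heart genes had 4 of 30 (13.3%, 0.735 per Mb), with Ryr1 at rank 1206. Long housekeeping genes had 5 of 41 (12.2%, 0.484 per Mb), with Exoc6b, an exocyst subunit gene, at rank 170 and Dock1 at 501. Pluripotency genes had 1 of 16 (6.25%), the Polycomb cofactor gene Jarid2 at rank 1596. With 1 region in 0.659 Mb their density was 1.52 per Mb, with a wide interval (0.0384 to 8.45). Liver, kidney and gut genes had 1 of 24 (4.17%, 0.396 per Mb), Dpyd at rank 2234. Feeder fibroblast and matrix genes had 1 of 28 (3.57%, 0.253 per Mb), the collagen gene Col4a1 at rank 1486. The interval of the density excluded 0.878 per Mb only for the list of voltage-gated channels and for RNA-binding and splicing factors. These intervals take regions as independent, although Rbfox3 alone held 6 of the 15 regions of the latter list. No adjustment over the 14 lists was made. The lists were drawn up with results of these data known, so their shares, densities and intervals are a description and not a test.

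**Figure D5:**
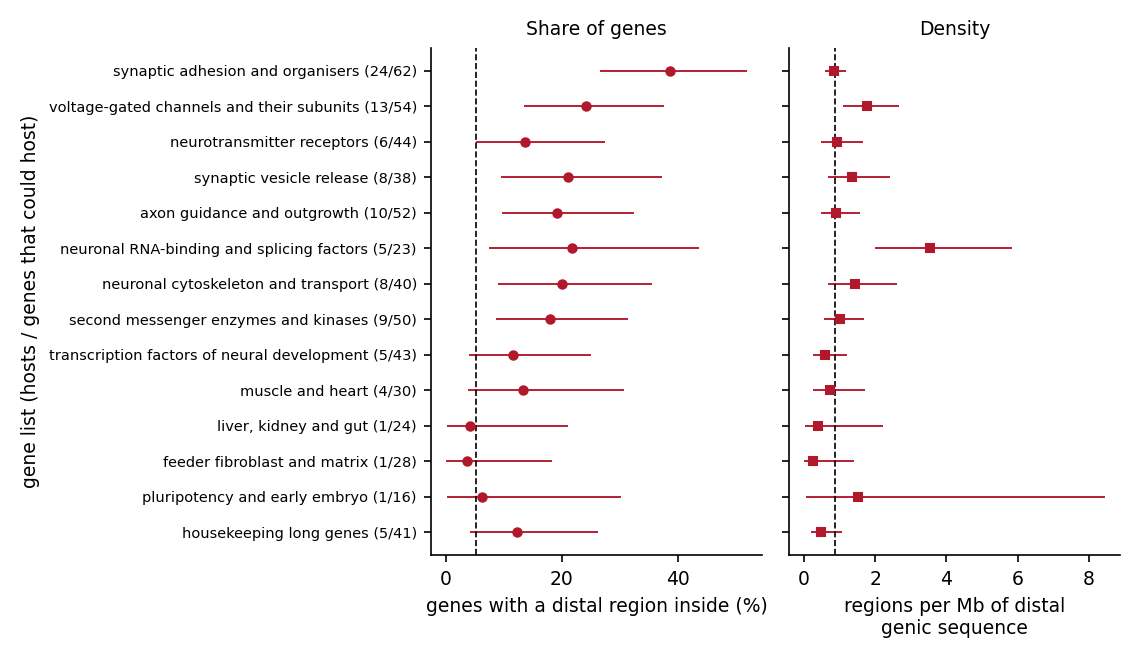
Left, share of the genes of each list that held a distal REST region (%, exact 95% intervals), with a dashed line at 5.18% for all genes that could host. Right, distal regions per Mb of distal genic sequence (exact Poisson 95% intervals), with a dashed line at 0.878. Synaptic adhesion genes are highest on the left (38.7%) and at the line on the right (0.837), and RNA-binding and splicing factors are highest on the right (3.55).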

How the data were processed

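REST ChIP DNA (3 technical replicates from each of 2 biological replicates, pooled) from N6 ESCs was sequenced as 1 library. The authors aligned reads to mm9 with Bowtie, per the paper's methods, or BWA, per the submitters' processing notes. Versions are not given in the sources used here. Per the methods, PeakRanger and MACS each called peaks, and those found by both were retained. The deposited list is longer than the set of regions the study describes, and whether it is that overlap is not stated. The deposited value is a rank score per region, with no height or count. Depth was therefore unknown, and intervals take in the counting error of regions or genes alone.

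Starts were read as counting from 0, while printed RE1 coordinates count from 1. Genome and annotation were NCBIM37 and GENCODE M1. A region was placed by its midpoint. Both strands were scanned for RE1s, single elements were allowed 1 mismatch, and classes were assigned in the order several, 1, wider gap (3 to 20 bases), left, right, none. Shares were compared by Fisher's exact test and ranks by the Mann-Whitney test, in Python 3.11.15 with scipy 1.17.1 and pysam 0.24.0, at a threshold of 0.05 with Benjamini-Hochberg adjustment over the 8 comparisons with the other classes. Regions of 1 list are not replicates, and neighbouring regions are not independent. The scan and tests were tested on simulated data.

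The class and the gene lists were chosen with earlier results of these data known. Genes named were the hosts of the 20 best-ranked regions and of 3 or more regions, up to 3 best-ranked hosts per list, and the regions nearest the limit and farthest from a TSS. Some items that this rule selects are not reported here. Other names, such as Reln, Shank1 and Nav1, were chosen after their values were seen. Alternatives covered the distance limit, the TSS set, the gene span, the rank, the grouping of neighbours and the mismatches.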

Additional observations from a re-analysis of the deposited data

How the results depend on the processing

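Of 135 alternative values, 105 kept their direction and side of the threshold or, for counts, stayed within 1.5 times. The cause of the other changes was not tested, except where fewer regions entered by construction. At a 10 kb limit the full RE1 odds ratio against distal regions outside genes was called (1.31), as it was with the whole region inside the gene (1.30) and in the 1252 better-ranked regions (1.69). The odds ratio for repeated RE1s against TSS-proximal regions was not called at 10 kb (0.612), at 50 kb (0.602), in the better-ranked set (0.526), with at most 3 mismatches (0.420) or with TSSs of all transcripts of protein-coding genes (0.467). Against regions outside genes it turned from 0.645 to 2.05 at a limit of 3 mismatches and to 1.18 at 6. With at most 3 mismatches the full RE1 odds ratio (1.30) and that of no element (0.877) against TSS-proximal regions were not called, nor was the latter in the better-ranked set (0.672). That of no element against regions outside genes turned to 1.01 with TSSs of all annotated transcripts. The rank difference from regions outside genes was not called with those TSSs (112.5), in the better-ranked set (78) or with exactly 1 full RE1 (123.5). Between full RE1 and no element it was -205.5 in the better-ranked set, again not called. The RE1 lay on the host's strand more often than 50% in the better-ranked set (59.4%) and beyond 50 kb (57.8%). The class shrank to 273 regions and 216 hosts beyond 50 kb, and to 208 regions and 171 hosts in the better-ranked set. E-boxes without a full RE1 were called with 1 mismatch (2.56), and those with one were not in the better-ranked set (1.60). With 1 mismatch the E-box also matches the bases CAGCTC of right elements such as those printed for Myo1d and Nav1. That overlap was not counted. Of the rare motifs, Esrrb turned to 0.855 and 0.457 with 1 mismatch, and in the better-ranked set to 0 without a full RE1, and the octamer to 2.02. The octamer and Klf sites without a full RE1 gave no odds ratio in that set, nor did the full RE1 against flanks with at most 3 mismatches, since none of the flanks matched. Alternatives on all transcripts of protein-coding genes, on RE1 content in the rank comparisons and on wide hosts were chosen after seeing the data. No paired analysis was possible because the list came from 1 pooled library.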

Other observations

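The distal genic regions were unevenly spread over chromosomes. Chromosome 5 had 60, or 1.72 per Mb of distal genic sequence (exact Poisson 95% interval 1.31 to 2.21), and chromosome 8 had 44 (1.56 per Mb). The X chromosome had 5 (0.183 per Mb, 0.0594 to 0.427). The 0.351 Mb of such sequence on Y had none. All distal genic sequence together had 0.878 per Mb. The other classes of REST regions were not counted by chromosome, so whether this spread is particular to regions inside genes was not tested. The input was not analysed, and the sequencing depth of each chromosome was unknown.

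A miRNA gene started within 20 kb of 12 of the 496 distal genic regions. The same count was not made for the rest of the list or for flanking sequence, so no association with miRNA genes was tested. The region in Pde2a, a phosphodiesterase gene, at rank 1492 was 1.99 kb from Mir139, and the region of rank 25 in Xkr6 was 13.9 kb from Mir598. In Nrf1, a transcription factor gene, the region of rank 1793 was 13.5 kb from Mir182, and in Ttc39c that of rank 1527 was 2.37 kb from Mir1948.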
